A study of Rattus norvegicus with 6 samples.

Results

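The messenger RNAs described here encode the core of the TGF-β pathway: the ligands Tgfb1, Tgfb2 and Tgfb3, the receptors Tgfbr1, Tgfbr2 and Tgfbr3, and the signal carriers Smad2, Smad3, Smad4 and Smad7. They were chosen by symbol, and all 10 were found among the 17030 gene symbols of the table, each on 1 row. TGF-β is secreted in a latent form, and once released it binds the type II receptor TGFBR2, which recruits and phosphorylates the type I receptor TGFBR1. TGFBR1 then phosphorylates SMAD2 and SMAD3, which join SMAD4, enter the nucleus and change transcription, and SMAD7 is induced by the same pathway and blocks it at the receptor. In carcinomas the pathway is known as a driver of epithelial-to-mesenchymal transition (EMT), the loss of epithelial contacts that goes with invasion.

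Each library is described as coming from the primary tumor of 1 Lobund-Wistar rat injected under the skin of the flank at 2 months of age with PAIII cells, a line of rat prostate cancer passaged from animal to animal and resistant to hormone withdrawal. Rats A1, A6 and A12 (replicates 1 to 3) received digitoxin, a plant cardenolide that inhibits the sodium pump, at 0.03 mg/kg daily by intraperitoneal injection from day 10, and rats B5, B9 and B14 (replicates 1 to 3) received vehicle. All tumors were taken on day 40, and RNA was isolated from 10 micropunches of 1 mm diameter taken from regions judged viable in sections of 300 micron. The sequenced rats were not a random sample of their groups, since digitoxin rats were taken from those with the lowest serum IL-6 and CINC-1 and vehicle rats from those with the highest, so drug and serum level cannot be told apart. The comparison asks whether the pathway differed with the drug. Tgfbr2 is the receptor the study put at the center of its rationale and singled out in these tumors, so its difference here is not independent evidence.

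The receptor promoters are shown because the question of the study was placed on receptor mRNA and on NFκB, a transcription factor that binds κB sites. The windows hold the 250 bases before the annotated start, 5′ to 3′ on the gene's strand, from RefSeq on the rat build GRCr8, and capitals mark a match to the κB consensus. The Tgfbr1 window lies at chr5:66449148-66449397 on the plus strand, that of Tgfbr2 at chr8:124761470-124761719 on the minus strand and that of Tgfbr3 at chr14:2634044-2634293 on the plus strand.
Tgfbr1: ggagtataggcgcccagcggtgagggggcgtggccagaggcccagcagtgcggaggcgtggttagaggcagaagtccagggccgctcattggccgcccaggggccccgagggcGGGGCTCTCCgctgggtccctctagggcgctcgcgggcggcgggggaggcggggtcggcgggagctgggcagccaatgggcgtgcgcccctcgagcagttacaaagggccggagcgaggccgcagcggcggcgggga
Tgfbr2: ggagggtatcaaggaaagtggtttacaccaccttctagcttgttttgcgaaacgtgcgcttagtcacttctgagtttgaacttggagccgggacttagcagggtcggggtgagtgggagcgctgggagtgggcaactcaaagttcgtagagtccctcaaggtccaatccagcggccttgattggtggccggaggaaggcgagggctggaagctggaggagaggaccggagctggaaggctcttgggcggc
Tgfbr3: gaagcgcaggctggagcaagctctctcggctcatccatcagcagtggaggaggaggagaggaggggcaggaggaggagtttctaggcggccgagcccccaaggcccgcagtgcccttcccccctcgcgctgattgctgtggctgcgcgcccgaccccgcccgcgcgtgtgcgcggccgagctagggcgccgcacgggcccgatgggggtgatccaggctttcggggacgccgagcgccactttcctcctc
The κB consensus was searched on both strands and was found in 1 of the 10 members, Tgfbr1, as GGGGCTCTCC from position -137 to -128 before the start. Across 27457 rat promoters of this length, 6.41% hold such a match. Of the SMAD-binding letters, GTCTAGAC was found in 0 members against 0.186% of all promoters, and CAGACA in 0 members against 16.9%. A missing match says only that these letters do not stand in this window. In base composition the windows ranged from 30.8% G + C in Smad4 to 79.6% in Smad2.

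The tumors differed widely in mRNAs that mark cell types. Summed FPKM (sequenced fragments divided by transcript length and by the size of the library) of 10 lung alveolar mRNAs, led by surfactant protein C (Sftpc), was 52090 in A1, 85707 in A6, 28113 in B5 and 36398 in B9, but 40.9 in A12 and 62.7 in B14. Sftpb, Sftpa1 and Lamp3 were at 0 in both A12 and B14, Sftpd in A12, and Sftpc and Slc34a2 in B14. All 6 are labelled as PAIII tumor, and 1 digitoxin and 1 vehicle library thus stood apart from the other 4, which held abundant lung mRNA. Lung is not part of a tumor under the skin, so the tissue of these 4 libraries is in doubt, and so is what a difference between the groups stands for. A12 and B14 were also the pair most alike across tested genes (r = 0.985 across genes, which are not independent replicates). In A6, the 10 most abundant rows took 36.3% of all FPKM, against 9.24% in B14, and 50.5% of all tested rows had their lowest value in A6. Of the prostate markers Pbsn was at 0 in all 6 tumors, Hoxb13 in 4 and Krt5 in 2, while Krt8, a keratin of luminal epithelium, was the most abundant. The depth of the libraries is unknown from these values.

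Across all 6 tumors Tgfb1 was the most abundant member, with a mean of 81.5 FPKM, followed by Smad4 at 32.0, Smad2 at 28.1, Tgfb3 at 25.0, Tgfbr2 at 22.8, Smad7 at 17.3, Tgfb2 at 13.7, Tgfbr1 at 12.9, Smad3 at 10.7 and Tgfbr3 at 2.51 FPKM. FPKM is per length, so levels of different genes can be set side by side. The ranges over the 6 tumors overlapped between all neighbours in this order. Within single tumors, Tgfb1 exceeded Smad4 in 6 of 6 tumors and Smad7 exceeded Tgfb2 in 6 of 6, whereas Smad4 exceeded Smad2, Tgfb3 exceeded Tgfbr2, Tgfbr2 exceeded Smad7 and Tgfb2 exceeded Tgfbr1 in 3 each, so the middle of the order was not kept within tumors. Smad7, Smad2 and Tgfb1 varied by 1.71-fold, 1.80-fold and 1.96-fold between the lowest and the highest tumor, while Tgfbr3 varied by 16.4-fold and Smad3 by 56.2-fold.

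**Figure D1:**
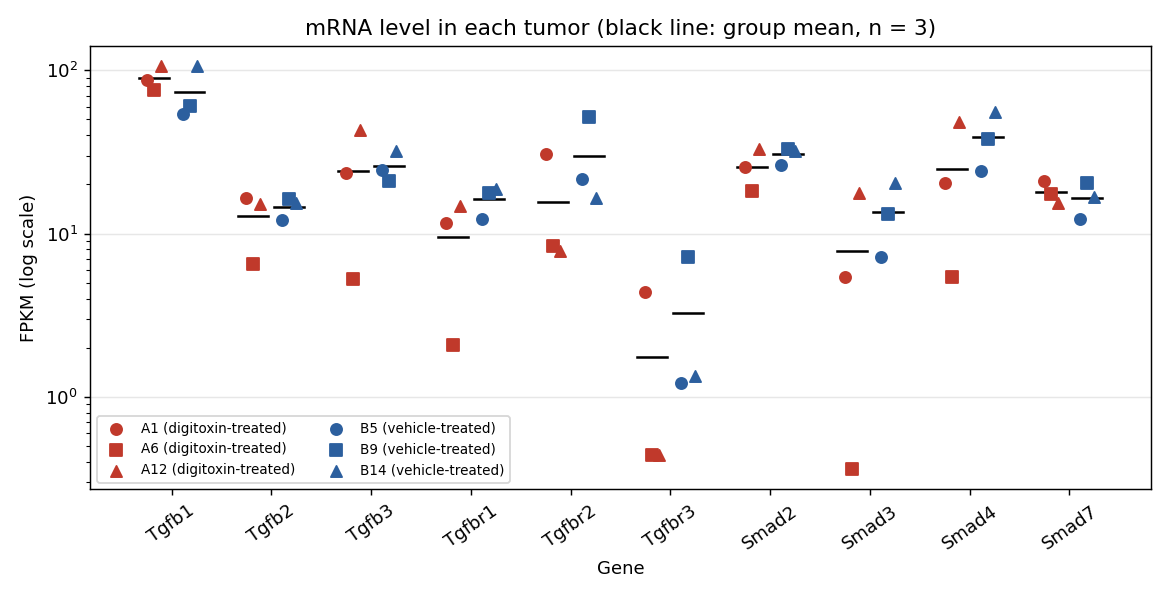
FPKM on a log axis for each of the 10 mRNAs in each tumor, digitoxin-treated in red and vehicle-treated in blue, with a black line at the group mean of 3 tumors. The groups overlap for every gene, and A6 is the lowest tumor for 7 of the 10.

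The digitoxin comparison called no member. At an adjusted p under 0.05, by limma on log2(FPKM + 1) with Benjamini-Hochberg adjustment, 0 of 10 members passed, against a background of 0.0% of the 10742 rows tested. At an unadjusted p under 0.05, 0 of 10 members passed, and 36 rows did, a background of 0.335%. The groups overlapped for all 10 members, so 0 were non-overlapping against 4.16% of all rows. In direction, 8 of the 10 had a lower mean log2 level with digitoxin, and so did 64.9% of all tested rows, so that a lower mean was also the rule for genes in general. The median difference was -0.56 on the log2 scale over the members and -0.16 over all rows. After scaling the libraries to a common median ratio, 48.5% of all rows were lower and their median was 0.017, while the members again had 8 lower and a median of -0.42. With the replicate number as a block, unadjusted calls over all rows rose from 36 to 447 and adjusted calls stayed at 0, with 0 members in either. The count of 36 became 13 without A6, 19 without B5, 11 without B9, 2128 without A12 and 1202 without A12 and B14.

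Tgfb1, the ligand made by many stromal and immune cells, was measured at 86.8, 76.0 and 105.8 FPKM in A1, A6 and A12, and at 54.2, 60.3 and 106.1 FPKM in B5, B9 and B14. A12 and B14 were the 2 highest tumors and nearly equal, and A1 and A6 lay above B5 and B9. The means were 89.5 ± 15.1 and 73.6 ± 28.4 FPKM (SD, n = 3 each). The log2 difference, digitoxin minus vehicle, was 0.33 with a standard error of 0.31 and a 95% interval from -0.42 to 1.09. It did not pass the test (limma adjusted p = 0.926), and it ranged from 0.15 without B5 to 0.62 without B14.

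Tgfb2 was measured at 16.6, 6.54 and 15.3 FPKM with digitoxin and at 12.1, 16.4 and 15.3 FPKM with vehicle, in the same order of tumors. A6 alone was low, and the other 5 tumors lay within 12.1 to 16.6 FPKM. The log2 difference of -0.26 (SE 0.40) became 0.13 when A6 was left out.

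Tgfb3, the isoform best known from palate and lung development, was measured at 23.6, 5.29 and 43.2 FPKM with digitoxin and at 24.6, 21.0 and 32.3 FPKM with vehicle. A12 and B14 were the highest tumors and A6 the lowest. Digitoxin minus vehicle, it differed by -0.48 on the log2 scale (SE 0.71), and by 0.31 without A6, so its sign rested on that tumor.

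Among the receptors, Tgfbr2 on chromosome 8 was measured at 30.6 FPKM in A1, 8.40 in A6 and 7.80 in A12, and at 21.7 FPKM in B5, 51.5 in B9 and 16.6 in B14. A6 and A12 lay below every vehicle tumor, but A1 lay above B5 and B14, so the groups overlapped. The mean was 15.6 ± 13.0 FPKM with digitoxin and 30.0 ± 18.9 FPKM with vehicle (SD, n = 3 each), a ratio of 0.521. On the log2 scale the difference was -1.0 with a standard error of 0.65 and a 95% interval from -2.57 to 0.57, and it did not pass (limma adjusted p = 0.926, from an unadjusted limma p of 0.171). It kept its sign with each tumor left out, from -1.60 without A1 to -0.54 without B9. Leaving out A1, the digitoxin tumor with the highest value, gave an unadjusted limma p of 0.0317. In that fit 0.327% of all rows and 1 of the 10 members had an unadjusted p under 0.05, with no adjusted call. Between A12 and B14, which have almost no lung mRNA, the log2 difference was -1.0. Between the means of A1 and A6 and of B5 and B9 it was also -1.0. The first is 1 tumor against 1, and the second joins unlike differences, 0.48 for A1 minus B5 and -2.48 for A6 minus B9.

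Tgfbr1, the kinase that phosphorylates SMAD2 and SMAD3, was measured at 11.7, 2.09 and 14.8 FPKM with digitoxin and at 12.3, 17.8 and 18.7 FPKM with vehicle. A6 was far below the others, A1 was just below B5, and A12 lay between B5 and B9. The log2 difference was -1.0 (SE 0.65), the same size as for Tgfbr2, but it was -0.26 without A6. A12 minus B14 alone gave -0.32.

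Tgfbr3, or betaglycan, is a coreceptor that presents ligand to TGFBR2. It was measured at 4.40, 0.440 and 0.442 FPKM with digitoxin and at 1.22, 7.22 and 1.35 FPKM with vehicle. A6 and A12 were lowest and B9 and A1 highest, which is also how Tgfbr2 ordered its extremes. Its log2 difference was -0.65 (SE 0.76), and at these low levels a difference on the log2(FPKM + 1) scale understates the change. Without B9 it was -0.029, without A1 it was -1.28, and with 0.1 in place of 1 added it was -1.14.

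Smad2 was among the steadiest members, at 25.7, 18.4 and 33.0 FPKM with digitoxin and 26.4, 33.1 and 32.2 FPKM with vehicle. A6 was again lowest, and the remaining 5 tumors lay close together. Its log2 difference was -0.27 (SE 0.28), with a 95% interval from -0.95 to 0.41, and it was -0.060 without A6 and -0.47 without A12.

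Smad3, its partner, was measured at 5.45, 0.361 and 17.7 FPKM with digitoxin and at 7.19, 13.3 and 20.3 FPKM with vehicle. B14 and A12 were highest, and A6 was far below every other tumor. The log2 difference of -1.31 was the lowest of the 10 but had a standard error of 0.97 and a 95% interval from -3.65 to 1.04. It was -0.30 without A6 and -2.19 without A12, where the unadjusted limma p was 0.0286.

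Smad4, the SMAD shared with the BMP branch, followed a like course at 20.5, 5.42 and 48.4 FPKM with digitoxin and 24.2, 38.2 and 55.4 FPKM with vehicle. The log2 difference was -1.01 (SE 0.76), ranging from -1.70 without A12, where the unadjusted limma p was 0.0304, to -0.23 without A6. In the fit without A12, 19.8% of all rows had an unadjusted p under 0.05, and so did 2 of the 10 members, Smad3 and Smad4, so these p-values do not set them apart. Tgfb1, Tgfb3, Smad3 and Smad4 were each higher in both A12 and B14 than in any of the other 4 tumors. How many of all rows did so was not counted, so this does not set them apart from genes in general.

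Smad7, the inhibitor of the pathway, differed least from tumor to tumor. It was measured at 21.1, 17.6 and 15.4 FPKM with digitoxin and at 12.3, 20.3 and 16.8 FPKM with vehicle. A6, lowest for 7 other members, was in the middle here. Its log2 difference was 0.14 (SE 0.29), with a 95% interval from -0.56 to 0.83, and it was -0.045 without B5.

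**Figure D2:**
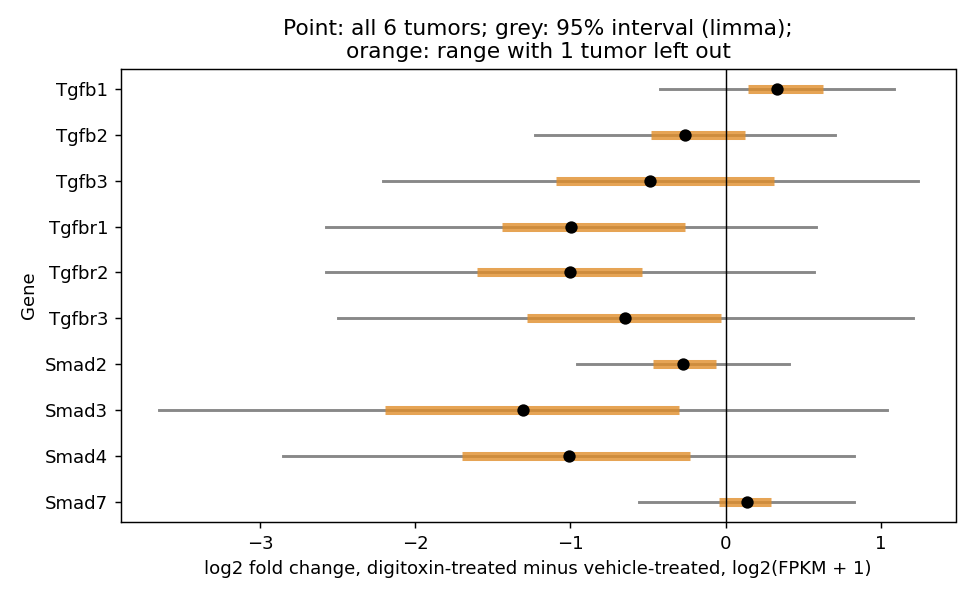
Log2 fold change of each mRNA, digitoxin-treated minus vehicle-treated, on the log2(FPKM + 1) scale, with the point from all 6 tumors, the 95% limma interval in grey and the range of values with 1 tumor left out in orange. Every interval crosses 0, and the orange bars of Tgfb2, Tgfb3 and Smad7 cross 0 as well.

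Among the tumors with almost no lung mRNA, 8 of 10 members were lower in A12 than in B14, with Tgfb1 and Tgfb2 among them nearly equal (-0.0037 and -0.0010), with a median log2 difference of -0.15, while 51.3% of all rows were lower with a median of -0.010. Among the others, whose lung and endothelial sums were higher in A1 and A6 than in B5 and B9, 8 of 10 members had a lower mean in A1 and A6 with a median of -0.77, against 64.6% of all rows and a median of -0.24. The 1 tumor in each arm of the first contrast leaves it without a replicate check. With the tumors paired by replicate number, Tgfbr1, Smad3 and Smad4 were lower with digitoxin in 3 of 3 pairs, as were 22.4% of all rows. Tgfbr2 was lower in 2 of the 3 and higher in A1 than in B5, by 0.48 on the log2 scale. What a replicate number stands for is not given, and A1 with B9 and A6 with B5 deviated together as closely. In those pairs Tgfbr2 was lower with digitoxin, at 30.6 FPKM in A1 against 51.5 in B9 and 8.40 in A6 against 21.7 in B5. The count over pairs thus depends on the numbering. For Tgfbr1, Smad3 and Smad4 the A1 and B5 pair differed by -0.066, -0.35 and -0.23 and the A6 and B9 pair by -2.60, -3.39 and -2.61. For Tgfbr2 the A6 and B9 pair differed by -2.48. Without A6 in the whole comparison, 6 of 10 members were lower and the median was -0.14, against 66.5% of all rows and a median of -0.082, so the members then stood close to the background.

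A6 also had the fewest signs of cell division. The summed FPKM of 10 mRNAs of dividing cells, led by Cdk1, was 75.0 in A6, 400.3 in A1, 533.0 in B5, 535.5 in B9, 687.4 in B14 and 765.6 in A12. Tgfbr1, Smad2, Smad3 and Smad4, like this sum, were lowest in A6 and second lowest in A1. Of all tested rows, 50.5% were lowest in A6, and the share that also had A1 second lowest was not counted. All 10 dividing-cell mRNAs had a lower mean with digitoxin, with a median log2 difference of -1.20, and 0 of them passed the test. The part of these cells in the SMAD and receptor differences was not tested, and in pooled tissue RNA fewer cells of a type and less RNA per cell cannot be told apart.

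Other cell type markers moved with the split into A12 and B14 on one side and the other 4 tumors on the other. Endothelial mRNAs (10 of 10 present, led by Cldn5) summed to 951, 1885 and 129 FPKM with digitoxin and 454, 762 and 143 FPKM with vehicle. Macrophage mRNAs (9 of 9, led by Lyz2) summed to 39446, 39761 and 1492 FPKM with digitoxin and 28165, 25998 and 2804 FPKM with vehicle, with 0 genes of either list at 0 in any tumor. Of the endothelial genes 9 of 10 were lowest in A12 and B14. Lyz2 made up nearly all of the macrophage sum in A1, A6, B5 and B9 and the larger part in A12 and B14, and without it the sums were 716, 516 and 605 FPKM with digitoxin and 701, 496 and 1014 FPKM with vehicle. Of the macrophage genes, 5 of 9 were lowest and 3 of 9 (Cd163, C1qa and C1qb) highest in A12 and B14. Fibroblast mRNAs (9 of 9, led by Col1a1) summed to 506, 189 and 1788 FPKM with digitoxin and 128, 181 and 2897 FPKM with vehicle. Smooth muscle mRNAs (7 of 7, led by Tagln) summed to 212, 185 and 377 FPKM and to 62.3, 158 and 781 FPKM. In A12 and B14, 6 of the 9 fibroblast genes and 3 of the 7 smooth muscle genes (Acta2, Cnn1 and Tagln) were highest, while the fibroblast gene Dpt was lowest there. Of the 10 dividing-cell genes, 9 were also highest in A12 and B14. Tgfb1, Tgfb3, Smad3 and Smad4 were highest in the same tumors, whereas Tgfbr2 was highest in B9. How many of all rows were highest there was not counted. The part of stromal, endothelial, dividing or lung cells in these levels was not tested. Fap was at 0 in A6, and Col1a2 was listed at 0 in all 6 tumors, while its partner chain Col1a1 was the most abundant fibroblast mRNA. Prostate epithelial mRNAs (11 of 11) summed to 1740, 885 and 2990 FPKM with digitoxin and 2453, 1712 and 2402 FPKM with vehicle.

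Profiles over the 6 tumors were compared by the root mean square difference between log2(FPKM + 1) levels, each centered on its own mean. Of 10741 other rows, those most like Tgfbr2 were Pik3r5 at 0.259, Ednrb (the endothelin B receptor) at 0.259, Tgfbr3 at 0.271, Arhgef6 at 0.280 and LOC100361087 at 0.294. Tgfbr3 thus took place 3. With 0.1 in place of 1 added before the logarithm, an alternative chosen after the data were seen, Tgfbr3 took place 103. The other members were far down the order, with Tgfb2 at place 1155, Smad7 at 2373, Smad2 at 2760, Tgfbr1 at 4028, Tgfb1 at 8605, Tgfb3 at 8710, Smad4 at 8935 and Smad3 at 9874. Smad4 stood at place 185 by likeness to Smad3, with a difference of 0.292, and at place 770 with 0.1 added.

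**Figure D3:**
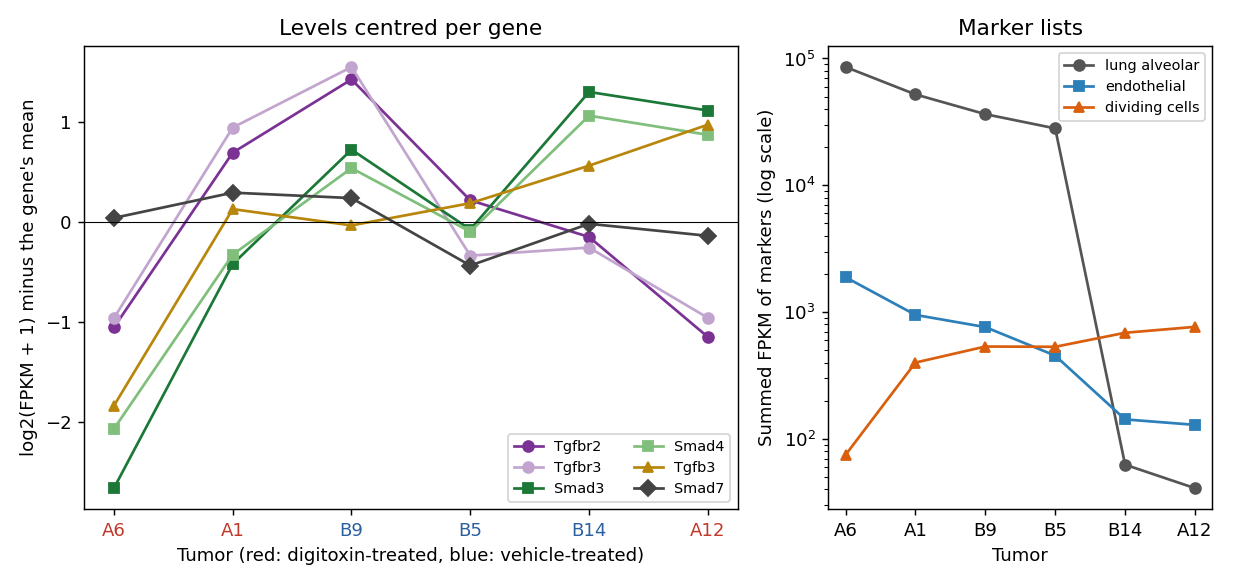
Left, log2(FPKM + 1) of 6 of the mRNAs minus the mean of each over the 6 tumors, with tumors ordered by their summed lung alveolar mRNA; right, summed FPKM of 3 marker lists on a log axis in the same order. Tgfbr2 and Tgfbr3 peak in B9 and are low in A6 and A12, Smad3 and Smad4 are lowest in A6 and highest in B14, and the lung sum falls from 85707 in A6 to 40.9 in A12.

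Ratios between members of the same tumor do not depend on how that library was scaled, apart from the added 1 in the test. Tgfbr2 over Tgfbr1 was 2.62, 4.02 and 0.526 with digitoxin and 1.77, 2.90 and 0.888 with vehicle. The type I receptor mRNA exceeded the type II mRNA in A12 and B14 and was the lower of the pair in the other 4 tumors. The group difference of the log2 ratio was -0.0073, since the log2 differences of the pair were nearly equal (exact two-sided permutation test, p = 1.0, adjusted p = 1.0 over 5 ratios). With 0.1 added in place of 1, this difference was 0.081.

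Tgfbr3 over Tgfbr2 was 0.144, 0.0524 and 0.0567 with digitoxin and 0.0563, 0.140 and 0.0812 with vehicle. With 1 added, the log2 difference was 0.36 (exact permutation p = 0.2), but it was -0.074 with 0.1 added. Its sign thus rested on the added number, which the printed ratios do not hold. Tgfb1 over Tgfb3 was 3.68, 14.4 and 2.45 with digitoxin and 2.20, 2.88 and 3.29 with vehicle, highest in A6 (log2 difference 0.82, exact permutation p = 0.4). Without A6 this difference was 0.13.

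For the SMADs, Smad7 over Smad3, inhibitor over effector, was 3.88, 48.6 and 0.869 with digitoxin and 1.72, 1.53 and 0.829 with vehicle. Smad3 exceeded Smad7 in A12 and B14 alone, and A6 stood far above every other tumor. The log2 difference was 1.44 (exact permutation p = 0.3) and 0.45 without A6. Smad2 over Smad3 was 4.72, 50.8 and 1.86 with digitoxin and 3.67, 2.50 and 1.59 with vehicle, with a log2 difference of 1.03 (exact permutation p = 0.4) that was 0.24 without A6. Adjusted over the 5 ratios, these 4 p-values were each 0.5, and 3 tumors against 3 cannot give a p below 0.1.

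**Figure D4:**
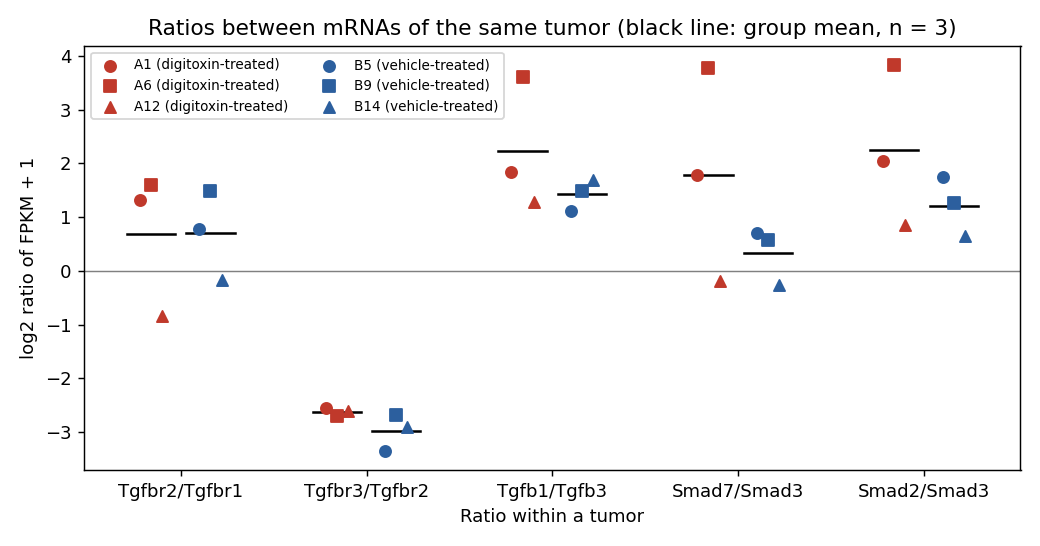
Log2 ratios of FPKM + 1 between 2 mRNAs of the same tumor, with a black line at the group mean of 3 tumors. The groups overlap in all 5 ratios, and A6 is the highest tumor in 4 of them.

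Genes that act around these members were read from 5 lists, and 0 of the 59 tested genes passed the adjusted threshold. Their counts and medians stand against 64.9% of all rows lower and a median of -0.16. Of 11 genes of latency and activation, 9 were in the table and 8 were tested, with 4 lower and 4 higher with digitoxin and a median log2 difference of 0.052, which ranged over the alternatives from -0.16 without B5 to 0.28 without A12 and B14. Thbs1, a matrix protein that can release latent TGF-β, was measured at 23.2, 2.66 and 113 FPKM with digitoxin and 34.5, 46.8 and 118 FPKM with vehicle (log2 difference -1.44, SE 1.24). Itgb6, the β6 integrin chain that activates latent TGF-β on epithelium, had a log2 difference of -1.04 (SE 0.67). Lrrc32, a surface anchor of latent TGF-β, had one of 0.69 (SE 0.50), and Ltbp3, a latent TGF-β binding protein, 0.45 (SE 0.35).

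Of 7 coreceptors and extracellular inhibitors, all tested, 4 were lower and 3 higher, with a median log2 difference of -0.014 that was -0.39 without A12, 0.084 without A6 and 0.64 without A12 and B14. Acvrl1, an endothelial type I receptor, was measured at 124, 288 and 11.3 FPKM with digitoxin and 45.2, 124 and 12.4 FPKM with vehicle, low in A12 and B14 as the endothelial sum was (log2 difference 0.84, SE 1.33). Bambi, a decoy receptor, had the same low tumors, at 1.76 FPKM in A12 and 2.0 in B14 (0.38, SE 1.29). Fst, which traps activins, had a log2 difference of -1.09 (SE 1.12), and the proteoglycan Bgn -0.34 (SE 0.59).

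Of 14 SMAD regulators, 11 were in the table and 10 were tested, with 8 lower, 2 higher and a median log2 difference of -0.43, which was -0.17 without A6 and -0.63 without A12. Dab2, an adaptor between the receptors and the SMADs, was measured at 44.6, 12.8 and 27.2 FPKM with digitoxin and 38.8, 62.7 and 48.7 FPKM with vehicle. Its log2 difference was -0.94 (SE 0.47) and gave an unadjusted limma p of 0.0888. The study lists Dab2 among mRNAs reduced in these tumors, so this is not independent evidence. Tgif1, a SMAD corepressor, had a difference of -0.87 (SE 0.79), Tab1, a partner of the kinase TAK1, 0.30 (SE 0.26), and Nedd4l, a ubiquitin ligase, 0.44 (SE 0.42).

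In the BMP and activin branch, 15 of 18 genes were tested, with 12 lower, 3 higher and a median log2 difference of -0.45, which was -0.18 without A6 and -0.88 without A12. Smad5, a SMAD of the BMP branch, was lowest in A6 like Smad3, at 10.3, 1.95 and 26.9 FPKM with digitoxin and 13.4, 18.2 and 28.7 FPKM with vehicle (log2 difference -1.05, SE 0.82). Acvr1b, an activin type I receptor, had a difference of -0.92 (SE 0.63). The inhibitory Smad6 was measured at 53.8, 52.9 and 2.08 FPKM with digitoxin and 11.9, 34.3 and 3.80 FPKM with vehicle, with its lowest levels in A12 and B14 (0.69, SE 1.31). Id1, a BMP target, had a difference of 0.97 (SE 1.16). Id2 was the 1 of the 15 tested genes whose groups did not overlap, against 4.16% of all rows, and is named after its values were seen, with a log2 difference of -0.41 (SE 0.23) and an unadjusted limma p of 0.119.

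Of 21 TGF-β target genes, 19 were tested, with 9 lower, 10 higher and a median log2 difference of 0.035, which ranged from -0.56 without A12 to 0.49 without A6. Zeb2, a repressor of epithelial genes in EMT, was measured at 2.69, 0.344 and 2.53 FPKM with digitoxin and 3.66, 6.65 and 6.01 FPKM with vehicle. It was lower in every digitoxin tumor than in every vehicle tumor, with a log2 difference of -1.28 (SE 0.50). It was the 1 of the 19 tested genes whose groups did not overlap and the 1 with an unadjusted p under 0.05, against 4.16% and 0.335% of all rows. Its unadjusted limma p was 0.0429 and its adjusted p 0.926, so it did not pass. The study names Zeb2 among the EMT mRNAs reduced in these tumors, so its difference here is not independent evidence. Acta2, smooth muscle actin, had a difference of 0.56 (SE 1.21) and Ctgf, a matricellular protein, 0.57 (SE 0.44).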

How the data were processed

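Messenger RNA of 6 tumors was sequenced by the authors as single reads from TruSeq RNA libraries, and FPKM values were made with Bowtie, TopHat and Cufflinks. The authors deposited 1 table of FPKM per gene row, normalized to transcript length and to the fragments mapped in each library. The submitters' notes name a human build, hg19, for these rat libraries, and the build of the table's positions was not settled, so positions are printed only from RefSeq GRCr8. Without read counts the depth of each library is unknown, and low values showed no common step from which it could be read. The authors' comparison by Cuffdiff needs reads and was not repeated.

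Only rows averaging 1 FPKM or more entered the comparison (10742), made on log2(FPKM + 1), with 1 as the pseudocount, by limma 3.58.1 (lmFit, eBayes with trend; R 4.3.3), digitoxin-treated minus vehicle-treated, two-sided, with Benjamini-Hochberg adjustment over all tested rows and a threshold of 0.05. For a symbol on several rows (467 symbols) the row with the highest mean was used. Ratios within tumors were tested by an exact two-sided permutation test (scipy 1.17.1). Motifs were searched on both strands. The fit was tested on simulated data with independent noise of the same size for all genes, without the differences between tumors seen here. That test checks the code and not how the fit behaves on these libraries. Each library is 1 rat, so p-values measure the spread between rats.

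The labels give both groups the numbers 1 to 3. Deviations from the group means correlated at 0.430 for A1 and B5, 0.606 for A6 and B9 and 0.869 for A12 and B14, all above 0.1, so the numbers were treated as pairs in an alternative fit. A1 with B9 (0.648) and A6 with B5 (0.613) deviated together as closely, and what a number stands for is not given in the sources used here.

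The members and the gene lists were chosen with earlier results of these data known. Named genes were every member, the 2 highest and 2 lowest log2 fold changes of each pathway list, the 5 profiles most like Tgfbr2, and the most abundant gene and the genes at 0 of each marker list. Some genes that this rule names are not reported here. Alternatives were each tumor left out, A12 and B14 left out together, the replicate block, scaling by median ratios, no trend in eBayes, a pseudocount of 0.1, all rows kept, and the ratio of mean FPKM.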

Additional observations from a re-analysis of the deposited data

How the results depend on the processing

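No member passed the adjusted threshold in any alternative. Over all rows the adjusted count of 0 became 2, Mir3561 and Mir3567, without the tumors A12 and B14, and it ranged from 0 to 2 with 1 tumor left out, at 2 without B14. With the replicate block, which cannot move a difference in this balanced design, it was 0, the log2 difference of Tgfbr2 was -1.0 (limma adjusted p = 0.638), and beyond the unadjusted count over all rows the block changed no other call. Over all alternatives the log2 difference of Tgfbr2 ranged from -1.60 without A1 to -0.54 without B9, and its adjusted limma p from 0.446 without A12 and B14 to 1.000 without B14. With 1 tumor left out, members lower with digitoxin ranged from 6 without A6 (all rows 66.5%) to 9 without B5 (all rows 64.2%), and their median from -0.89 without A1 (all rows -0.23) to -0.14 without A6 (all rows -0.082). Signs turned with 1 tumor left out for Tgfb2 (-0.48 to 0.13), Tgfb3 (-1.09 to 0.31), Smad7 (-0.045 to 0.29) and the log2 ratio of Tgfbr2 to Tgfbr1 (-0.46 to 0.76). That ratio's difference was 0.081 with a pseudocount of 0.1 and 0.33 without A12 and B14, and that of Tgfbr3 to Tgfbr2 was -0.074 with a pseudocount of 0.1. Unadjusted calls over all rows numbered 130 with no filter and 48 without a trend. The causes were not tested. Read depth is unknown and its limits could not be set.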
